A study of Citrullus lanatus with 26 samples.

Results

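Small RNA of watermelon (Citrullus lanatus) fruit flesh was compared between 30 DAP and 20 DAP, the 2 oldest fruit ages of an age series of the cultivar 97103 (subsp. vulgaris). DAP is the unit of fruit age in the labels, whose titles also carry the codes RF for 30 DAP and CT for 20 DAP. The members were chosen by these labels: 3 libraries at 30 DAP and 3 at 20 DAP, which are 6 of the 26 libraries of the series, with all 208 miRNA names that their tables list. The 12 libraries of the same cultivar at 0, 1, 5 and 10 DAP were used to estimate the spread and to show the earlier course. The other 8 libraries, of 97103 and PI296341FR at 10 and 30 DAP, form a separate set and were not used. All libraries compared come from flesh of 97103 with no treatment named. The labels do not say whether the replicates of an age came from separate fruits or plants, so the p-values reflect how far the libraries of an age differ, which may be technical variation alone.

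Plant miRNAs are small RNAs cut from hairpin precursors by the enzyme DCL1 and loaded into ARGONAUTE proteins, where they guide the cleavage or translational repression of mRNAs with a near-perfect match. Conserved families mostly target transcription factors, such as SPL, NAC, TCP, MYB and auxin response factors, and several of these control fruit growth and ripening in other species. Of the 208 names, 29 are family names that begin with a species code (cme for melon), and 179 are called novel_miR with a number. The tables pair the names with counts and with no sequence, so novel_miR names have no target or family here and no sequence is printed. In bulk flesh, fewer cells of a type and less of a miRNA per cell cannot be told apart.

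Total counts were 80198 to 107944 in the libraries at 30 DAP and 62050 to 107910 at 20 DAP. Levels are given in CPM, a count over its library's total after scaling with trimmed-mean (TMM) factors. These scaled CPM add up to more in the libraries at 30 DAP than in those at 20 DAP, so they are not shares of a library. The libraries at 30 DAP had factors between 0.531 and 0.704, and those at 20 DAP between 0.886 and 0.929. Replicate 3 of 30 DAP stood apart from the other 2 of its age: of 179 names with a mean above 100 CPM it exceeded both by over 1.5 times in 20, against 0 to 3 names in each of the other 5 libraries. A chi-square statistic over names, which is about 1 per degree of freedom under sampling noise alone, was 19.2 and 19.9 per degree of freedom for its 2 pairs, 5.70 for the other pair at 30 DAP and 1.97 to 4.50 for the pairs at 20 DAP. Where a call or a value that the text turns on moved without that library, the value without it is given beside it. Among the listed families no name marks flesh cells as such, so the tissue label could not be checked.

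At 30 DAP the flesh had far more hbr-miR6485, more cme-miR319a, and less cme-miR162 than at 20 DAP. cme-miR319b was called higher too, but not in every alternative tried. Of novel_miR names, the most abundant pair, novel_miR_121 and novel_miR_30, was higher at 30 DAP by 1.03 on the log2 scale, and novel_miR_93 and novel_miR_2 by 2.39 and 2.38. By edgeR's quasi-likelihood test with a Benjamini-Hochberg adjusted p under 0.05, 40 of 204 tested names were called, or 19.6%, with 23 higher (11.3%) and 17 lower (8.33%). At an unadjusted p under 0.05 it was 56. The 3 libraries of one age all lay above those of the other in 69 of the 204 names, or 33.8%, and in all 40 called names. Names with nearly the same counts in every library may rest on the same reads. With such names joined, the 40 names are 34 profiles, 19 higher and 15 lower.

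Without scaling factors, where each count is set only against its library's total, the median of all names lay at -0.59 on the log2 scale, against -0.03 with TMM factors, and the calls were 13 higher and 80 lower. All 17 falls and 13 of the 23 rises were called under both scalings, and the other 10 rises were called only with TMM factors of these 2. Over all 17 alternatives tried, 13 rises and 10 falls were called each time the name was tested, and these are 9 and 8 profiles. The rises are hbr-miR6485, cme-miR319a and novel_miR_2, 14, 30, 40, 60, 89, 93, 106, 121, 146 and 175. The falls are cme-miR162 and novel_miR_1, 7, 8, 12, 21, 37, 41, 66 and 166.

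**Figure D1:**
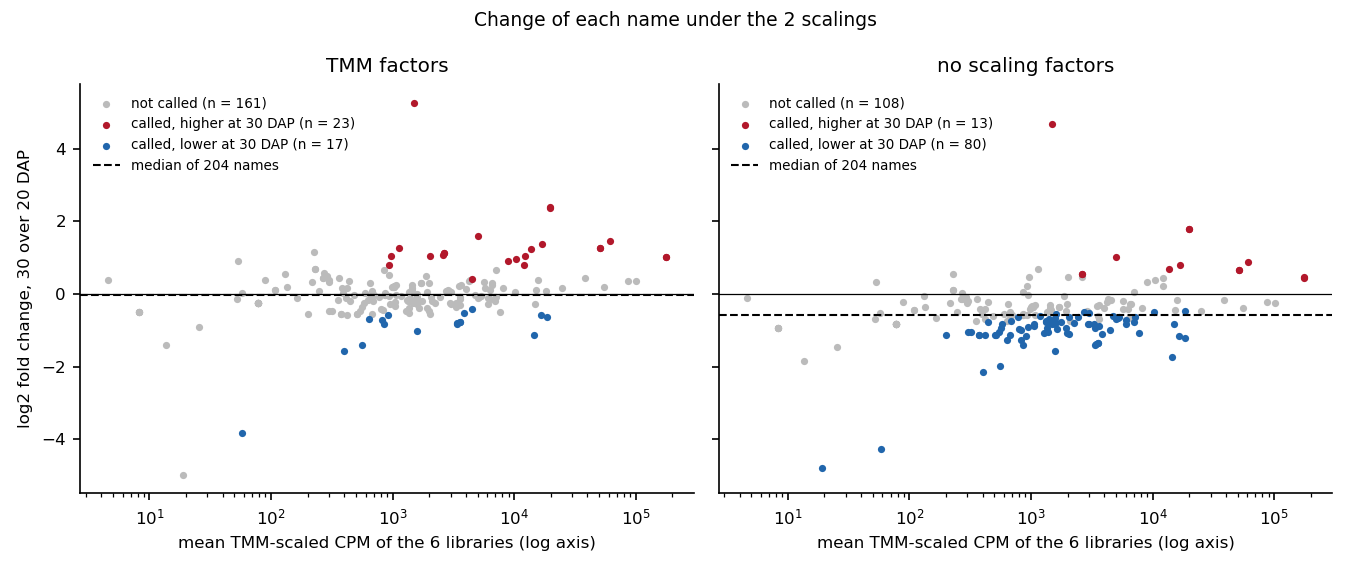
Log2 fold change of 30 over 20 DAP against the mean level of the 6 libraries in TMM-scaled CPM (log axis) for the 201 of 204 tested names with a count at either age, with TMM factors on the left and without scaling factors on the right. Coloured points are names called by edgeR, the dashed line is the median of all 204 names, which lies at -0.03 with TMM factors and at -0.59 without factors.

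The largest rise among the 204 tested names was that of hbr-miR6485, whose prefix hbr stands for the rubber tree. It had 3100, 2279 and 3404 CPM in the 3 libraries at 30 DAP, against 80.6, 73.7 and 69.4 CPM at 20 DAP. Every library at 30 DAP was above every library at 20 DAP by a wide margin. These levels rest on 175, 114 and 195 counts at 30 DAP and on 8, 5 and 4 counts at 20 DAP. The log2 fold change was 5.26 (SE 0.40, edgeR adjusted p = 2.86e-08), with 4.69 to 5.39 over the alternatives. By its share of counts it stood 63rd of 208 names at 30 DAP and 190th at 20 DAP. At the earlier ages its mean stayed at 4.79, 5.57, 9.85 and 15.8 CPM at 0, 1, 5 and 10 DAP.

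Of miR319, which targets TCP transcription factors of the class that limits leaf growth, 3 names were tested and 2 were called. cme-miR319a had 20301, 25209 and 27269 CPM at 30 DAP, against 9815, 9590 and 8641 CPM at 20 DAP. The groups do not overlap, and the log2 fold change of 1.37 (SE 0.25, edgeR adjusted p = 0.000628) was called in every alternative. cme-miR319b had 11497, 14274 and 15380 CPM at 30 DAP, against 7235, 7248 and 6594 CPM at 20 DAP, a log2 fold change of 0.96 (SE 0.26, edgeR adjusted p = 0.0124). Its call was lost without scaling factors, at 0.39, without replicate 3 of 30 DAP, at 0.87 (edgeR adjusted p = 0.0677), and without replicate 2 of 30 DAP or replicate 3 of 20 DAP. The most abundant member, cme-miR319c, had 87333, 93321 and 110159 CPM at 30 DAP and 75192, 80150 and 73000 CPM at 20 DAP. In these scaled values its libraries did not overlap either, but the change of 0.35 (SE 0.27) did not pass the test (edgeR adjusted p = 0.436). Its direction depends on the scaling: without scaling factors the change was -0.225. The mean share of counts of cme-miR319c was 5.93% at 30 DAP and 6.93% at 20 DAP.

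The ratio between members of a family is read within each library and needs no scaling factor. The log2 ratio of cme-miR319a to cme-miR319c was -2.10, -1.89 and -2.01 at 30 DAP, against -2.94, -3.06 and -3.08 at 20 DAP, a difference of 1.02. For cme-miR319b over cme-miR319c the means were -2.82 ± 0.11 at 30 DAP and -3.44 ± 0.05 at 20 DAP (SD, n = 3 each), a difference of 0.61. In both ratios the 2 ages do not overlap, as in 8 of the 10 ratios computed, of which 7 were higher and 1, cme-miR167c over cme-miR167b, was lower at 30 DAP (-0.13). Of the 7, cme-miR171d over cme-miR171a had 0 counts of both names in replicates 1 and 2 of 30 DAP. The added 0.5 alone sets the ratio there. cme-miR156a and cpa-miR156b had the same counts in these libraries, so their ratios to cme-miR156d are the same values. For either miR319 ratio the exact permutation test, two-sided, gave p = 0.1, the smallest that 3 libraries against 3 allow, and the adjusted value over the 10 ratios computed was 0.125.

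**Figure D2:**
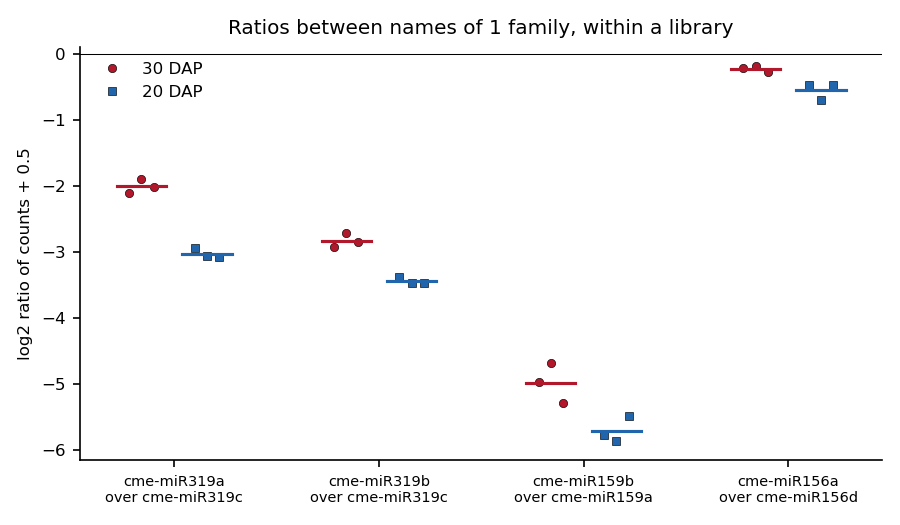
Log2 ratio of the counts, plus 0.5, of 2 names of the same family within each library, at 30 DAP (red circles) and 20 DAP (blue squares), with bars at the means. The 3 libraries at 30 DAP lie above the 3 at 20 DAP in each of the 4 ratios shown, out of 10 computed, of which 7 have this order, and the difference of the means is 1.02 for cme-miR319a over cme-miR319c. The 7 include cme-miR171d over cme-miR171a, with 0 counts of both names in replicates 1 and 2 of 30 DAP. They also include cpa-miR156b over cme-miR156d, with the same values as cme-miR156a over cme-miR156d.

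miR159, close to miR319 in sequence, targets GAMYB-type MYB transcription factors. cme-miR159b had 2710, 3858 and 4050 CPM at 30 DAP, against 1582, 1620 and 1874 CPM at 20 DAP, a log2 fold change of 1.07 (SE 0.32, edgeR adjusted p = 0.0224). The groups do not overlap, but the call was lost when either of replicates 1 and 2 of 20 DAP or of replicates 2 and 3 of 30 DAP was left out (highest edgeR adjusted p = 0.114), and without scaling factors. cme-miR159a, the far more abundant member, had 84836, 98999 and 158569 CPM at 30 DAP and 86196, 94734 and 83932 CPM at 20 DAP. It was not called (0.37, SE 0.31, and 0.05 without replicate 3 of 30 DAP), and replicate 1 of 30 DAP lay among the libraries at 20 DAP while replicate 3 lay above all of them. The log2 ratio of cme-miR159b to cme-miR159a was -4.98 ± 0.31 at 30 DAP and -5.70 ± 0.20 at 20 DAP (SD, n = 3 each, exact permutation p = 0.1).

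miR164 targets NAC transcription factors of the NAM and CUC group. cme-miR164c had 12312, 15953 and 21351 CPM at 30 DAP, against 7285, 9015 and 7687 CPM at 20 DAP. Each library at 30 DAP was above those at 20 DAP, with a log2 fold change of 1.05 (SE 0.29, edgeR adjusted p = 0.0135). The call was lost without scaling factors, at 0.46, without replicate 3 of 30 DAP, at 0.81 (edgeR adjusted p = 0.0976), and, with adjusted p-values of at least 0.0513, without replicate 2 of 30 DAP or replicate 1 or 3 of 20 DAP. cme-miR164b had 1, 0 and 1 counts at 30 DAP and 2, 0 and 0 at 20 DAP, and was not tested.

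cme-miR162 was the 1 name with a family number that fell. miR162 targets the mRNA of DCL1, the enzyme that makes miRNAs, and so takes part in a feedback on the miRNA pathway. It had 7245, 7977 and 11871 CPM at 30 DAP, against 18249, 22170 and 19243 CPM at 20 DAP. The groups are well separated, although replicate 3 of 30 DAP lay nearest to 20 DAP. The log2 fold change was -1.14 (SE 0.23, edgeR adjusted p = 0.00108) and was called in every alternative, with -1.73 without scaling factors and -1.39 without replicate 3 of 30 DAP. Its share of the counts was 0.545% at 30 DAP and 1.81% at 20 DAP, and its place among the 208 names was 26th at 30 DAP and 12th at 20 DAP. It is the only listed name of the miRNA pathway list (miR162, miR168, miR403).

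cme-miR2111a belongs to a family that phosphate starvation induces and that moves through the phloem. It had 1630, 1060 and 2112 CPM at 30 DAP, against 635, 781 and 590 CPM at 20 DAP, and the groups do not overlap. The log2 fold change of 1.26 (SE 0.34, edgeR adjusted p = 0.0111) was not called without replicate 3 of 30 DAP, at 1.00 (edgeR adjusted p = 0.0690), nor without scaling factors, at 0.69 (edgeR adjusted p = 0.0512). It is the 1 listed name both of the phosphate and sulphate list (miR395, miR399, miR827, miR2111) and of the phloem-mobile list (miR395, miR398, miR399, miR827, miR2111), which was taken as a sign of another tissue. As a share of counts it took 0.0659% to 0.115% at 30 DAP and 0.0548% to 0.0692% at 20 DAP, ranges that overlap. The part of phloem tissue in the results was not tested.

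**Figure D3:**
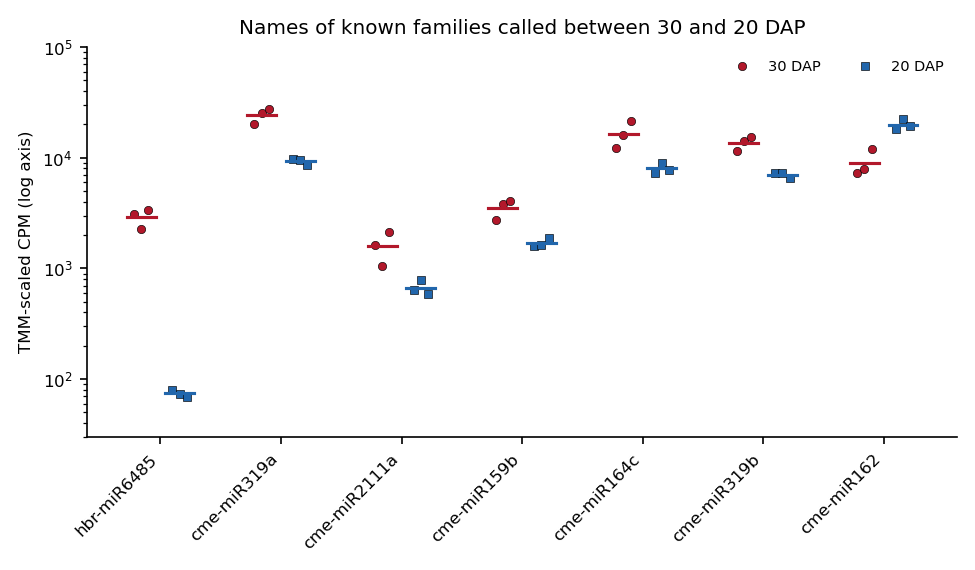
TMM-scaled CPM (log axis) of the 7 names with a family number that edgeR called, in the 3 libraries at 30 DAP (red circles) and the 3 at 20 DAP (blue squares), with bars at the means. All 3 libraries of one age lie above those of the other for each name; hbr-miR6485 has the widest gap, with means of 2928 and 74.6 CPM, and cme-miR162 is the 1 name that is lower at 30 DAP.

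Of the 25 tested names with a family number, 6 were higher, 1 was lower and 18 were not called. The share called is thus 7 of 25 where 19.6% of all names were called. Their median log2 fold change was 0.37, against -0.03 over all names. The 0.37 is the value of cme-miR159a, which was at 0.05 without replicate 3 of 30 DAP. The 25 include cme-miR171c and mdm-miR171h, which had 0 counts at both ages and so a change of 0. Medians here and below are with TMM factors and depend on them: without scaling factors that of all names was -0.59. By share of counts, names with a family number together took 20.1% at 30 DAP and 22.6% at 20 DAP. The organ growth and meristem list (miR164, miR165, miR166, miR171, miR319, miR396) had 3 of 9 tested names higher and none lower. Its median of 0.38 is the fitted value of cme-miR171d, a name with 1 count at each age, so it shows no shift of the list. cme-miR171c and mdm-miR171h are among the 9 as well. cme-miR166b, whose family targets class III HD-ZIP transcription factors, stood at 44165 ± 14503 CPM at 30 DAP and 32473 ± 2722 CPM at 20 DAP (SD, n = 3 each) and was not called (0.44, SE 0.25). Its libraries at 30 DAP had 33693, 38084 and 60718 CPM, and without replicate 3, the highest, the change was 0.14. miR171, a family directed at GRAS transcription factors, had few or no counts at both ages. Summed over libraries, cme-miR171a reached 3 counts at 30 DAP, against 8 at 20 DAP, 1.94-fold lower with a counting interval of 0.466 to 11.4. cme-miR171c, cme-miR171i and mdm-miR171h had 0 counts at both ages, and cme-miR171d had 1 at each.

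The phase change list (miR156, miR157, miR172) had no call by edgeR in its 6 tested names, where 19.6% of all names were called, and 0 of 6 is no result about so short a list. The median log2 fold change of the list was 0.47. None of the 6 passed at an unadjusted p under 0.05. miR156 keeps plants juvenile by repressing SPL genes, and miR172 represses AP2-like genes. The 5 tested miR156 names lay between 0.34 and 0.68, and cme-miR172b at -0.04. Without replicate 3 of 30 DAP cme-miR156d was at 0.15, cme-miR156c at 0.21 and cme-miR172b at -0.32. They are low names: cme-miR156a had 213, 300 and 332 CPM at 30 DAP, against 151, 206 and 174 CPM at 20 DAP, from 10 to 19 counts a library, and cpa-miR156b had the same counts in these libraries. DESeq2 called none of the 6 either.

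The auxin list (miR160, miR167, miR390, miR393) had 0 of 4 tested names called by edgeR or by DESeq2, none at an unadjusted p under 0.05, and a median of -0.17. Beside the 19.6% of all names, 0 of 4 is no result about the list either. Both listed families target auxin response factors. cme-miR167c had 461, 460 and 1624 CPM at 30 DAP, against 937, 1193 and 1006 CPM at 20 DAP, and cme-miR167b had 549, 580 and 1781 CPM at 30 DAP, against 1018, 1296 and 1076 CPM at 20 DAP. In both names replicates 1 and 2 of 30 DAP lay below all libraries at 20 DAP and replicate 3 lay above them. Without replicate 3 the change of cme-miR167b was -1.01, against -0.21 with it. That of cme-miR167c was -1.19, against -0.28 with it, and did not pass the test (edgeR adjusted p = 0.0590). Without scaling factors both names were called lower, at -0.91 for cme-miR167c and -0.83 for cme-miR167b (edgeR adjusted p = 0.0311 and 0.0413). cme-miR160a and cme-miR160c had 1 to 6 counts a library at either age.

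The last names with a family number were cme-miR530b, at 863 CPM at 30 DAP and 852 CPM at 20 DAP on average (0.04, SE 0.32, and -0.35 without replicate 3 of 30 DAP, not called), cme-miR156g and gma-miR5368. cme-miR156g had 6, 1 and 7 counts at 30 DAP and 3, 0 and 1 at 20 DAP. gma-miR5368 had 2, 0 and 2 counts at 30 DAP and 0 in each library at 20 DAP. Set against a floor of 3 counts over the 3 libraries at 20 DAP, its pooled level at 30 DAP was 1.83-fold higher. That value takes the few counts at 30 DAP as exact, so a rise is not established. Neither cme-miR156g nor gma-miR5368 was tested. The copper and NBS-LRR defence lists have no name in the table.

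Of the 179 novel_miR names, 17 were higher and 16 lower, or 18.4% called, close to the 19.6% of all tested names, and the median was -0.08. Among the rises, novel_miR_93 had 25881, 33546 and 40502 CPM at 30 DAP, against 7275, 6364 and 5396 CPM at 20 DAP. The groups are far apart, with a log2 fold change of 2.39 (SE 0.30, edgeR adjusted p = 2.40e-05), and 1.80 without scaling factors. Its share of all counts was 2.02% at 30 DAP and 0.578% at 20 DAP, which moved it to 10th place at 30 DAP, against 30th at 20 DAP. novel_miR_2 had nearly the same counts in every library, and the pair is 1 of the joined profiles.

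novel_miR_40 had 7387, 7237 and 8153 CPM at 30 DAP, against 2529, 2578 and 2395 CPM at 20 DAP. Its replicates lay close together at both ages, and the log2 fold change was 1.60 (SE 0.27, edgeR adjusted p = 0.000412). novel_miR_106 had 83135, 85104 and 102198 CPM at 30 DAP, against 29625, 35678 and 32882 CPM at 20 DAP (1.46, SE 0.21, edgeR adjusted p = 9.50e-05). It made up 5.52% of counts at 30 DAP and 2.98% at 20 DAP. novel_miR_14 and novel_miR_60, which had identical counts, stood at 55819, 60095 and 100993 CPM at 30 DAP, against 29192, 33601 and 27937 CPM at 20 DAP. Replicate 3 of 30 DAP was the highest here, and the log2 fold change was 1.26 (SE 0.25, edgeR adjusted p = 0.00112) with it and 0.93 without it, called both times.

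The most abundant pair, novel_miR_30 and novel_miR_121, also had nearly the same counts. novel_miR_30 had 200654, 258352 and 251480 CPM at 30 DAP, against 117746, 118126 and 111869 CPM at 20 DAP, a log2 fold change of 1.03 (SE 0.16, edgeR adjusted p = 0.000150). It was called in every alternative, with 0.46 without scaling factors. The rest of the 10 largest rises were novel_miR_89 at 1.25, novel_miR_146 and novel_miR_175 with identical counts at 1.14, and novel_miR_18 and novel_miR_156 at 1.05 each. novel_miR_18 and novel_miR_156 lost their calls without scaling factors (edgeR adjusted p = 0.0988 and 0.0990).

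**Figure D4:**
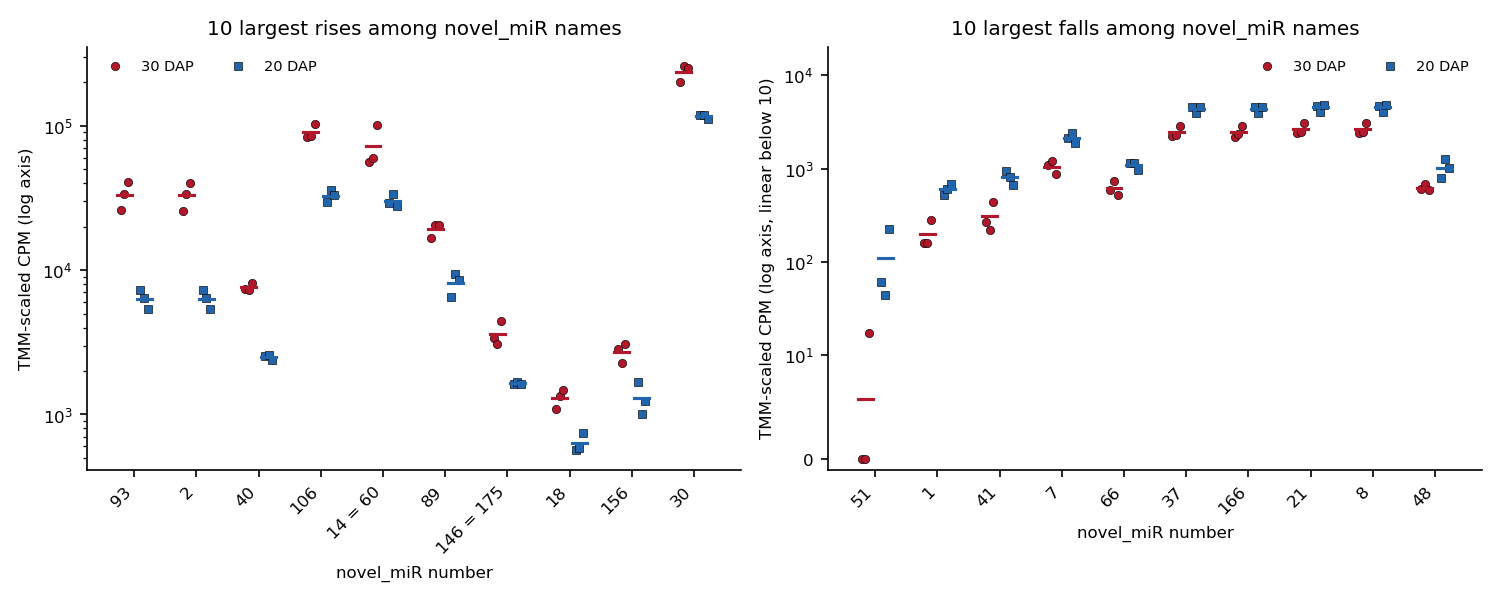
TMM-scaled CPM of the 10 largest rises (left, log axis) and the 10 largest falls (right, log axis that is linear below 10) among called novel_miR names, in the 3 libraries at 30 DAP (red circles) and the 3 at 20 DAP (blue squares), with bars at the means; names joined by = had identical counts. No name shown has overlapping ages, and novel_miR_30 is the most abundant, at 200654 CPM or more in each library at 30 DAP.

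Among the falls, novel_miR_1 had 159, 160 and 279 CPM at 30 DAP, against 524, 604 and 677 CPM at 20 DAP, a log2 fold change of -1.56 (SE 0.27, edgeR adjusted p = 0.000500). novel_miR_41 had 266, 220 and 436 CPM at 30 DAP, against 947, 810 and 659 CPM at 20 DAP (-1.39, SE 0.26, edgeR adjusted p = 0.000654). In both, replicate 3 of 30 DAP lay nearest to 20 DAP, and without it the changes were -1.90 and -1.75. novel_miR_7 had 1081, 1200 and 873 CPM at 30 DAP, against 2116, 2386 and 1874 CPM at 20 DAP, and fell by 1.02 on the log2 scale (SE 0.16, edgeR adjusted p = 0.000212). The ages lay far from overlapping.

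novel_miR_37 and novel_miR_166 form 1 profile of nearly equal counts, and novel_miR_21 and novel_miR_8 another at a like level. novel_miR_37 had 2250, 2279 and 2846 CPM at 30 DAP, against 4534, 3918 and 4512 CPM at 20 DAP (-0.81, SE 0.15, edgeR adjusted p = 0.000654), and novel_miR_21 changed by -0.78. novel_miR_66 changed by -0.83 and novel_miR_48 by -0.70. novel_miR_48 lost its call with upper-quartile factors (edgeR adjusted p = 0.0645) and without replicate 2 of 20 DAP or replicate 1 or 3 of 30 DAP. novel_miR_51 had 0, 0 and 1 counts at 30 DAP, against 6, 3 and 13 counts at 20 DAP. It was 16.03-fold lower by pooled scaled counts, with an exact 95% counting interval of 2.59 to 662, and its call (edgeR adjusted p = 0.0246) was lost without replicate 3 of 20 DAP or any 1 of the replicates of 30 DAP.

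The 3 most abundant novel_miR names that were not called were novel_miR_46, novel_miR_5 and novel_miR_69. novel_miR_46 had 60177, 48020 and 67981 CPM at 30 DAP and 51824, 51587 and 50737 CPM at 20 DAP (0.19, SE 0.22, and 0.06 without replicate 3 of 30 DAP). novel_miR_5 had 15624, 17792 and 45827 CPM at 30 DAP and 23327, 23010 and 24206 CPM at 20 DAP (0.17, SE 0.36), so that replicate 3 of 30 DAP lay above, and the other 2 below, all libraries at 20 DAP, and without it the change was -0.50. novel_miR_69, at 0.09 (SE 0.11), turned to -0.46 without scaling factors and was then called lower (edgeR adjusted p = 0.0311).

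The most abundant names held more of the counts at 30 DAP than at 20 DAP. The 10 most abundant names of each library held 62.5%, 64.2% and 66.4% of its counts at 30 DAP, against 54.3%, 55.3% and 53.7% at 20 DAP. The groups do not overlap, and the means of 64.4 ± 1.94% at 30 DAP and 54.4 ± 0.81% at 20 DAP (SD, n = 3 each) differ by 9.96 percentage points (exact permutation test, two-sided, p = 0.1, the smallest possible here). The most abundant name alone held 14.5 ± 1.40% at 30 DAP and 10.6 ± 0.26% at 20 DAP (SD, n = 3 each, exact permutation p = 0.1), a difference of 3.92 percentage points. With only 1 name kept of each group of nearly identical names, such as novel_miR_30 and novel_miR_121, the difference was 6.04 points. The counts of the names left out were dropped from the totals too, not added to the name kept. Of the 10 names with the highest mean level at 30 DAP, 9 were also in the top 10 at 20 DAP and 6 were called higher, which are 4 profiles with nearly identical names joined. Over all tested names 11.3% were called higher, and picking names by their level at 30 DAP favours rises. Names with a family number together took 20.1 ± 2.02% of counts at 30 DAP and 22.6 ± 0.82% at 20 DAP (SD, n = 3 each, exact permutation p = 0.3), with replicate 3 of 30 DAP, at 22.4%, inside the range of 20 DAP.

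The same model gave the difference between the step from 20 to 30 DAP and the step from 10 to 20 DAP, which share the 20 DAP libraries. It called 10 of 204 names by edgeR's test, or 4.9%. cme-miR319a had means of 10783, 9349 and 24260 CPM at 10, 20 and 30 DAP, and its last step exceeded the one before by 1.58 on the log2 scale (SE 0.44, edgeR adjusted p = 0.0448). cme-miR164c had means of 1142, 7996 and 16539 CPM at 10, 20 and 30 DAP, so that its last step was the smaller one, by -1.76 (SE 0.49, edgeR adjusted p = 0.0448). cme-miR162 had means of 14054, 19887 and 9031 CPM at these ages (-1.64, SE 0.38, edgeR adjusted p = 0.0201).

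These calls depend on the libraries used: leaving out 1 library at a time gave 1 to 15 calls. cme-miR319a and cme-miR164c each lost theirs in 7 of these 9 fits and cme-miR162 in 4. novel_miR_101, named here after its values were seen, was the 1 name called in every alternative of this contrast. Its means were 329, 8783 and 15376 CPM at 10, 20 and 30 DAP, and its last step was smaller than the one before by -3.94 on the log2 scale (SE 0.40, edgeR adjusted p = 3.39e-06). In the last step alone it was called higher, at 11018, 15853 and 19256 CPM at 30 DAP, against 7306, 9796 and 9249 CPM at 20 DAP (0.81, SE 0.23, edgeR adjusted p = 0.0166). That call was lost without scaling factors, at 0.22 (edgeR adjusted p = 0.393), and without replicate 1 of 20 DAP or replicate 2 or 3 of 30 DAP (highest edgeR adjusted p = 0.0885, at 0.61 without replicate 3 of 30 DAP).

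**Figure D5:**
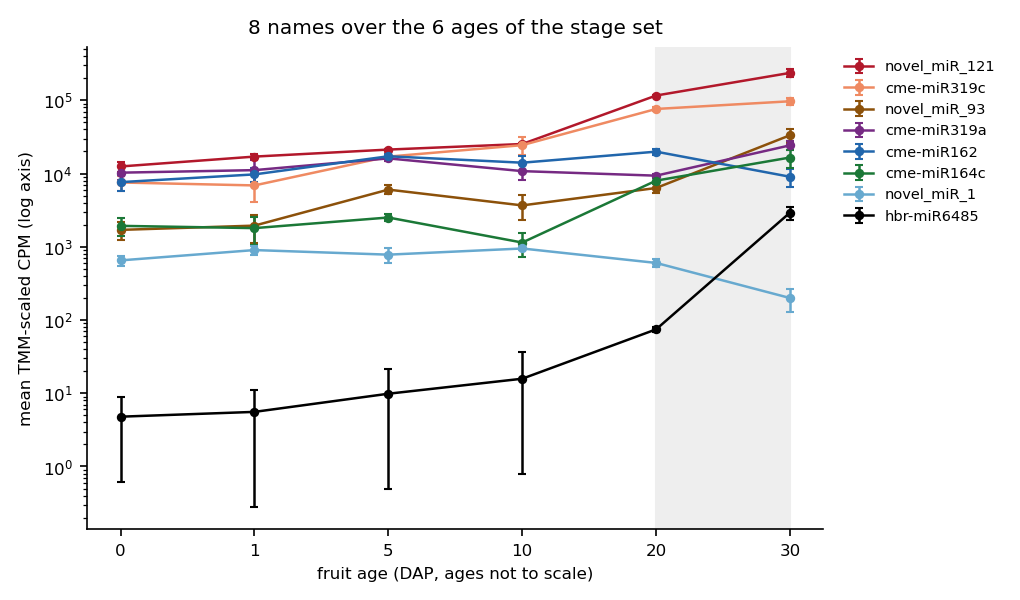
Mean TMM-scaled CPM (log axis) of 8 names at the 6 ages from 0 to 30 DAP (not to scale), with bars of 1 SD over 3 libraries, shortened downwards where the SD comes close to or exceeds the mean; the step from 20 to 30 DAP is shaded. hbr-miR6485 stays below 20 CPM on average up to 10 DAP and stands at 2928 CPM at 30 DAP, against 74.6 CPM at 20 DAP, while cme-miR162 and novel_miR_1 are lower at 30 DAP than at 20 DAP.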

How the data were processed

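Small RNA was sequenced from flesh of 97103. The authors deposited whole-number read counts per miRNA name, 1 table a library. fastp and BWA were used, per the submitters' processing notes. Neither build nor miRNA reference nor how reads were counted is stated (not given in the sources used here), so it is unknown whether reads matching several names were counted for each.

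Counts were tested as deposited with edgeR 4.0.16 in R 4.3.3 (quasi-likelihood F test, Benjamini-Hochberg threshold 0.05). TMM factors and edgeR's filter with a minimum count of 10 were used, and the 18 libraries of 6 ages shared 1 estimate of the spread. Of 208 names, 204 were tested. SE is the absolute log2 fold change over the square root of F. Low counts have exact 95% counting intervals, and a floor of 3 counts where a group is at 0. The intervals cover counting error only, and the floor leaves out the counting error of the other group. Ratios within families use counts plus 0.5. Shares and ratios were tested with exact permutation tests. The fit was checked on simulated data.

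Alternatives were other scaling factors, other filters, DESeq2 1.42.0, the 6 libraries alone, a replicate block and leaving out each library. Others kept 1 name per identical, or per nearly identical, profile and left out the rest. Replicate numbers were not taken as pairs. Same-numbered libraries had correlations of deviations of 0.19, -0.23 and -0.03 over 179 names. Deviations from a mean of 3 libraries constrain each other, so these values cannot decide whether the samples were paired.

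Named are all names with a family number and, of novel_miR names, the 10 largest rises and falls among calls without overlap, the 10 most abundant names at 30 DAP and the 3 most abundant not called. Members and lists were chosen with earlier results of these data known.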

Additional observations from a re-analysis of the deposited data

Results flagged for a closer look

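For 6 of the miRNAs named by the stated rule, the change from 20 to 30 DAP differed from the change from 10 to 20 DAP. The difference itself was tested (edgeR, adjusted p under 0.05), and values are the last step minus the step before on the log2 scale. The difference was 1.58 for cme-miR319a, -1.64 for cme-miR162, -1.76 for cme-miR164c, -1.17 for novel_miR_121, -1.19 for novel_miR_30 and -1.09 for novel_miR_7. In the 9 fits that left out 1 library, cme-miR319a and cme-miR164c each lost the call in 7, cme-miR162 in 4, novel_miR_121 and novel_miR_30 in 3 and novel_miR_7 in 2, with edgeR adjusted p-values of up to 0.263 for cme-miR164c and 0.211 for the other 5. Of the 9 other alternatives, cme-miR319a lost it in 5 and cme-miR164c in 6. cme-miR162, novel_miR_121 and novel_miR_7 each lost it in 1, and novel_miR_30 in 1 of the 8 that held it. novel_miR_101, named outside that rule, also passed, at -3.94, and was called in every alternative. Both steps use the 20 DAP libraries.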

How the results depend on the processing

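The 40 calls of 30 against 20 DAP became 31 to 41 when 1 library was left out (18 to 23 higher, 12 to 19 lower). Each of these fits kept 31 to 34 of the 40 in the same direction. Called in all of them were 16 of the 23 rises and 10 of the 17 falls. Without scaling factors there were 93 calls, of which 13 were higher and 80 lower. Many names changed sign in that fit, among them novel_miR_69, which was called lower at -0.46. novel_miR_70, called higher with TMM factors at 0.41, turned to -0.15 and was not called. cme-miR159a, cme-miR166b and cme-miR319c, not called under either scaling, also turned below 0. The other alternatives, DESeq2 included, gave 34 to 46 calls. The replicate numbers were not taken as pairs, and with the replicate block the calls were 41. The difference of the 2 steps was less stable: its 10 calls became 1 with upper-quartile factors, 20 without scaling factors, 16 with the replicate block, 6 with 1 name per nearly identical profile, and 1 to 15 with 1 library left out. The fewest, 1 each, came without replicate 1 or replicate 2 of 20 DAP, and without replicate 1 or 2 of 30 DAP there were 3 and 6. With 1 name kept per nearly identical profile, an alternative chosen after seeing the data, the share of the most abundant name differed by 6.04 percentage points, against 3.92. The causes were not tested. Depth limits names such as miR171, with at most 8 counts an age.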
